A study of Mus musculus with 8 samples.

Results

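The 10 genes described here encode TREM2, its signalling partner and the markers most used to define lipid-associated macrophages: Trem2, Tyrobp, Apoe, Gpnmb, Spp1, Lpl, Fabp4, Fabp5, Lgals3 and Cd9. They were taken by gene name from a table of 35275 mouse genes, and all 10 were present and had a mean level high enough to be tested. RNA was sequenced from tumor-associated macrophages, sorted as CD11b+ F4/80+ Ly6G- Ly6C- cells from MC38 tumors, a mouse colon adenocarcinoma line grown under the skin. Female C57BL/6J hosts of 6 to 8 weeks received 100000 MC38 cells, and the tumors were collected on day 21. All 8 hosts were homozygous for a floxed Atg5 allele (Atg5flox/flox): 4 without Cre are called Atg5 WT, and 4 that also carry LysMcre are labelled Atg5 KO. LysMcre is expressed from the Lyz2 locus, so it acts in macrophages, monocytes and neutrophils alike and its efficiency differs between them, and the MC38 cells themselves keep Atg5. The comparison asks whether the lipid-associated macrophage genes differ when the host's myeloid cells lack Atg5, which is needed to lengthen the autophagosome membrane.

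TREM2 is a surface receptor of macrophages and microglia that binds lipids, lipoproteins and the membranes of dying cells. It has no signalling tail of its own and works through TYROBP (also called DAP12), an adaptor whose phosphorylated tyrosine motif recruits the kinase SYK. Macrophages that have taken up much lipid, in fat tissue, atherosclerotic plaques and tumors, are known to express TREM2 together with carriers of lipid (APOE, FABP4, FABP5) and the lipase LPL. They are also known to express the glycoproteins GPNMB and osteopontin (Spp1), galectin-3 (Lgals3) and the tetraspanin CD9.

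Levels are given as FPKM, the fragments of a gene per kilobase of its length, scaled to the total fragments of the library. Library totals ran from 14799546 to 25555195 fragments in genes. The RNA of Atg5 itself had higher, not lower, values in KO-labelled libraries: its FPKM was 6.73, 3.504, 3.93 and 3.91 across Atg5 WT mice 1 to 4 and 16.2, 13.8, 12.8 and 13.3 across KO-labelled mice 1 to 4 (limma adjusted p = 0.0987, and 0.00481 with the mouse number as a block). A level of the whole gene does not check the deletion of the floxed part, so every direction below rests on the label. LysMcre is known to disrupt the copy of Lyz2 it sits in. Lyz2, which encodes lysozyme, was at 4436 to 6268 FPKM in Atg5 WT and at 2808 to 3467 FPKM in KO-labelled libraries. The groups of Lyz2 were without overlap, as for 0.59% of all genes tested in this direction. Its log2 difference was -0.79 (limma adjusted p = 0.985, 0.166 with the block, and 0.0425 by voom with the block). The sorted cells carried the defining macrophage markers, with Csf1r at 347 to 393 FPKM and Adgre1, which encodes F4/80 and is listed under its older symbol Emr1, at 94.6 to 156 FPKM. The libraries of mouse 1 in both groups stood apart, with summed fibroblast markers of 111 and 219 FPKM against 19.3 to 37.1 in the other 6 libraries, and results that change without them are marked as such. In bulk RNA from sorted cells, fewer cells of a type and less RNA per cell cannot be told apart.

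Promoter windows of the receptor gene and of the 2 glycoprotein genes are shown for the following reasons. Gpnmb was the member with separate groups, and Trem2 gives the group its name. Spp1, a secreted product, had the higher mean in the KO-labelled libraries, with groups that overlapped. The RefSeq table (GRCm38.p6, the same assembly as mm10) held windows from 250 bases before to 50 after the start for 6 of the 10 members. Capitals mark matches to the motifs searched on both strands, none of which overlapped another in these windows. The motifs were the E-box CACGTG, the M-box core TCATGTG, the AP-1-like TGANTCA and the ETS motif GAGGAAGT. In TGANTCA the N stands for any base, which is looser than the AP-1 consensus. The windows are chr17:48346151-48346450 (Trem2), chr6:49036268-49036567 (Gpnmb) and chr5:104434861-104435160 (Spp1), all on the plus strand and written 5′ to 3′.
Trem2: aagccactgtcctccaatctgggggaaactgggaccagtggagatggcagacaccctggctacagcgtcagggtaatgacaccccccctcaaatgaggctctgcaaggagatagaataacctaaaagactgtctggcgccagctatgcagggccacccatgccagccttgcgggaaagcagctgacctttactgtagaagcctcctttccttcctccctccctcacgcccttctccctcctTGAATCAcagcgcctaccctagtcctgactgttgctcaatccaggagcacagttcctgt
Gpnmb: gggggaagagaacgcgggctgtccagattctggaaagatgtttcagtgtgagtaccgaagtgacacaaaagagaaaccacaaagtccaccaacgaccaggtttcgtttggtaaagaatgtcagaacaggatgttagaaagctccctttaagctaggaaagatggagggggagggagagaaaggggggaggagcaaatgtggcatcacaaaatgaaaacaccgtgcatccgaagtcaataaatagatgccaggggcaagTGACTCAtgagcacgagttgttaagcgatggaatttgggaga
Spp1: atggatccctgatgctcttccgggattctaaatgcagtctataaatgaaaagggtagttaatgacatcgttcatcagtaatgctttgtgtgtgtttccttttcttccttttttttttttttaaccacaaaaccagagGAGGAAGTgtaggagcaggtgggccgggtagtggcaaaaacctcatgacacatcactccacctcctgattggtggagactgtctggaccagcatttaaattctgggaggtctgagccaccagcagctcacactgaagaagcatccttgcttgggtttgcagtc
The Trem2 window held TGAATCA, its first base 9 bases before the start, and the Gpnmb window held TGACTCA, its first base at position 9 with the start base as position 1. The Spp1 window held GAGGAAGT, its first base 113 bases before the start. Of all 32851 windows of 300 bases in the table, 7.81% held the AP-1-like TGANTCA, 3.20% the ETS motif, 7.15% the E-box and 3.77% the M-box core. The last 2 motifs, of the kind MiT/TFE factors bind, were not among the letters of the 6 windows searched. A match is a description of these letters only.

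The 10 genes spanned over 3 orders of magnitude in level. Apoe was the highest, at 3242 FPKM on average over the 8 libraries and between the 6th and 15th place among all genes of a library. Spp1 (1272 FPKM), Lgals3 (1157 FPKM) and Tyrobp (770 FPKM) followed. Ranges of neighbours in the whole order overlapped in 4 of 9 pairs, and Apoe lay above Spp1 without overlap. Spp1 was above Lgals3 in 6 of 8 libraries with overlapping ranges, while Lgals3 was above Tyrobp in all 8 although their ranges overlapped. Cd9 stood at 171 FPKM, below Tyrobp and above Trem2 without overlap. Trem2 (53.4 FPKM) and Fabp5 (37.7 FPKM) overlapped in range, but Trem2 was the higher in each library. Lpl (17.5 FPKM) exceeded Gpnmb (11.0 FPKM) in 7 of 8 libraries. Fabp4 was last, at 2.86 FPKM, from only 20 to 54 fragments per library.

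The order depends on the length used. The deposited table divides by 4784 bases for Trem2, against 1088 bases in the principal coding transcript of GENCODE release M21, and by 3238 bases for Fabp5, against 987 bases. Were all fragments from those transcripts, the mean levels per length would be 235 for Trem2 and 124 for Fabp5, and Trem2 would pass Cd9. The factor for Fabp4 was 0.711, with the table length the shorter. For Tyrobp, Lpl, Spp1, Lgals3 and Cd9 the lengths were identical, and for Apoe and Gpnmb they differed by a factor of 0.984 and 1.03. The length cancels in a ratio of FPKM between groups. It does not cancel fully in the differences of log2(FPKM + 1) given below, nor in the mean level required for testing.

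**Figure D1:**
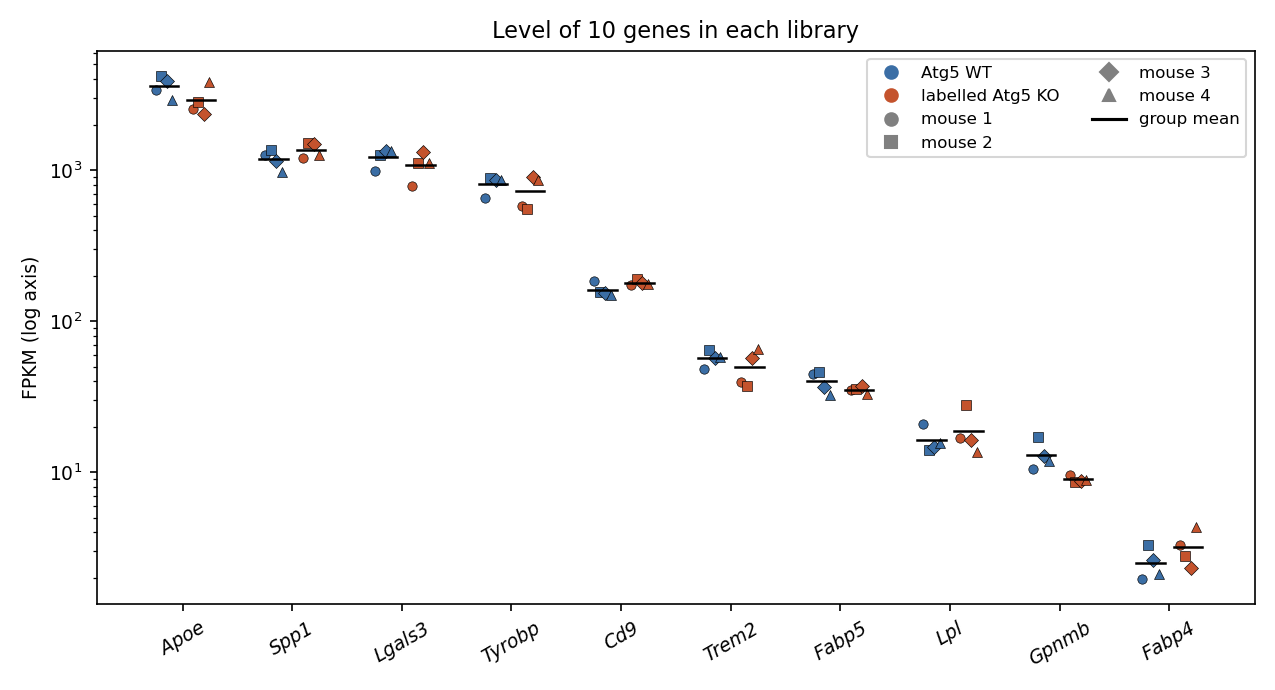
FPKM of the 10 genes (log axis) in each library, Atg5 WT in blue and labelled Atg5 KO in orange, with a symbol for each mouse number and a bar at each group mean. The groups overlap for each gene except Gpnmb, whose KO-labelled values (8.70 to 9.63 FPKM) lie below the Atg5 WT values (10.5 to 17.02 FPKM).

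No member passed the test across all genes. Limma on log2(FPKM + 1) called 0 of 11019 genes at an adjusted p under 0.05 (0.0%), and 223 genes (2.02%) had an unadjusted p under 0.05. Voom on recovered fragments also called 0. A block for the mouse number gave 1 call (0.00908%), Atg5, and 971 genes (8.81%) at an unadjusted p under 0.05, again with Gpnmb as the 1 member, and voom with the block called 8 genes, none of them a member. Of the 10 members, 6 had negative and 4 had positive differences, with a median of -0.18 on the log2 scale against 0.03 over all genes tested. A single member, Gpnmb, had an unadjusted p under 0.05, a lower value (0.826% of all genes tested were lower at this level and 1.2% higher), and it was also the single member whose groups did not overlap. Groups did not overlap for 1.74% of all genes tested. Over mice 2 to 4 they did not overlap for Gpnmb and Cd9, beside 14.7% of all genes tested.

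Gpnmb, which encodes a transmembrane glycoprotein of lipid-laden and lysosome-stressed macrophages, had the largest difference of the 10. Its gene lies on chromosome 6 (49036518 to 49058182, plus strand, mm10), and its principal transcript has 11 exons. The FPKM was 10.5, 17.02, 12.8 and 11.8 across Atg5 WT mice 1 to 4. Across KO-labelled mice 1 to 4 it was 9.63, 8.70, 8.75 and 8.95. All 4 KO-labelled values were thus below all 4 Atg5 WT values, a pattern that 0.59% of all genes tested showed in this direction. The KO-labelled values were also close together, with a coefficient of variation of 4.79% against 21.6% in Atg5 WT. The means were 13.04 ± 2.82 (SD, n = 4) and 9.01 ± 0.43 (SD, n = 4) FPKM, a ratio of 0.691. The log2 difference was -0.47 ± 0.14 (SE), with a 95% interval of -0.78 to -0.16 and a limma adjusted p of 0.999, so the difference did not pass. An exact two-sided permutation test gave p = 0.0286, which is the lowest value possible with 4 against 4 and is not adjusted for other genes.

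Counting error was small for Gpnmb, from 534 to 1200 fragments per library. The exact Poisson intervals, which cover counting error only, ran from 16.1 to 18.0 FPKM for the highest library, Atg5 WT mouse 2, and from 7.97 to 9.47 FPKM for the lowest, KO-labelled mouse 2. The mouse 1 pair was the closest, with a log2 difference of -0.11 and intervals that overlapped (9.80 to 11.2 FPKM against 9.03 to 10.3 FPKM). Over mice 2 to 4 the means were 13.9 ± 2.75 (SD, n = 3) and 8.80 ± 0.13 (SD, n = 3) FPKM, and 4.43% of all genes tested were separate and lower over these mice. Without Atg5 WT mouse 2 the log2 difference was -0.34. GPNMB is also abundant in pigment cells. The summed level of 6 melanocyte markers was 0.454 to 1.08 FPKM in Atg5 WT and 0.386 to 0.535 FPKM in the KO-labelled libraries.

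**Figure D2:**
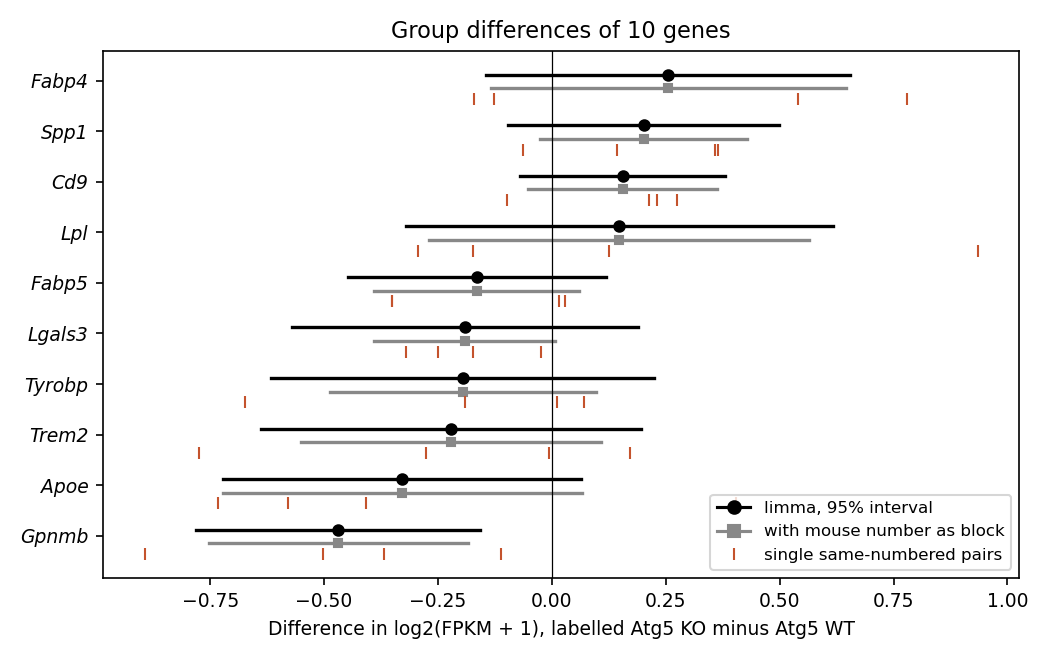
Difference in log2(FPKM + 1), labelled Atg5 KO minus Atg5 WT, for each gene: the limma estimate with its 95% interval (black), the same with the mouse number as a block (grey) and the 4 same-numbered pairs (orange ticks). The interval of Gpnmb (-0.78 to -0.16) is the one that leaves out 0. The 4 pairs of Gpnmb and the 4 pairs of Lgals3 all lie below 0, as for 6.52% of all genes tested.

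Trem2 and Tyrobp, receptor and adaptor, followed one another closely from library to library and did not separate the groups. Trem2 (chromosome 17, 48346401 to 48354147, plus strand) had 48.4, 64.2, 57.1 and 57.9 FPKM across Atg5 WT mice 1 to 4. It had 39.8, 37.1, 56.9 and 65.3 FPKM across KO-labelled mice 1 to 4. Mice 1 and 2 of the KO-labelled group were the lowest of the 8, while its mouse 4 was the highest, so the groups overlapped fully. The means were 56.9 ± 6.51 (SD, n = 4) and 49.8 ± 13.6 (SD, n = 4) FPKM. The log2 difference was -0.22, with a 95% interval of -0.64 to 0.20 (limma adjusted p = 0.999).

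Tyrobp (chromosome 7, 30413788 to 30417577, plus strand) had 658, 883, 863 and 857 FPKM across Atg5 WT mice 1 to 4. Across KO-labelled mice 1 to 4 it had 576, 553, 907 and 863 FPKM. The low libraries were the same as for Trem2: Atg5 WT mouse 1 and KO-labelled mice 1 and 2. The means were 815 ± 106 (SD, n = 4) and 725 ± 186 (SD, n = 4) FPKM, with a log2 difference of -0.20 and an interval of -0.62 to 0.23. Without KO-labelled mouse 1 or 2 the log2 difference of Tyrobp was -0.10 or -0.08. Within a library, the level of Trem2 was 6.27% to 7.57% of that of Tyrobp, on the deposited lengths. Their profiles over the 8 libraries were the most alike of all pairs of members. Likeness was measured as the root mean square difference between standardised log2 profiles, where 0 is an identical profile. It was 0.299 for this pair and 0.676 for the next, Tyrobp and Lgals3.

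The low libraries of Trem2 and Tyrobp were not particular to this pair. The same 3 libraries were the lowest for 16.9% of all genes tested. The genes nearest to Trem2 in profile were Isoc2a (distance 0.134), Mapk3 (0.175), which encodes the kinase ERK1, and Lmf2 (0.210), a lipase maturation factor. Nearest to Tyrobp were Uqcrq (0.135), a subunit of respiratory complex III, Aph1a (0.179), a subunit of gamma-secretase, and Pelo (0.180). Summed markers of monocytes moved the other way: the 9 markers reached 817, 1068 and 1148 FPKM in Atg5 WT mouse 1 and KO-labelled mice 1 and 2, against 531 to 730 FPKM in the other 5. Thbs1, thrombospondin-1, made up most of that sum. All 9 had a mean of at least 1 FPKM. Ly6c2, a gene of the antigen used to gate out monocytes, was at 2.09 to 14.9 FPKM. The complement genes C1qa and C1qc, high in mature macrophages, were lowest in KO-labelled mice 1 and 2 (C1qa 1277 and 1283 FPKM against 1708 to 2285 elsewhere). The 11 macrophage markers summed to 8565 to 10060 FPKM in Atg5 WT and 7025 to 9149 FPKM in the KO-labelled libraries, lowest in KO-labelled mice 1 and 2. Of these 11, 8 had negative and 3 positive differences. The C1q genes and Cd14 made up most of the sum, and the markers did not all share its order. Itgam, which encodes CD11b, was at 243 to 269 FPKM in Atg5 WT and 290.1 to 349 FPKM in the KO-labelled libraries, highest in KO-labelled mouse 2. Mrc1, the mannose receptor gene, was highest in the mouse 1 libraries (245 and 238 FPKM against 138 to 168 FPKM elsewhere). The part of these markers in the result was not tested.

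**Figure D3:**
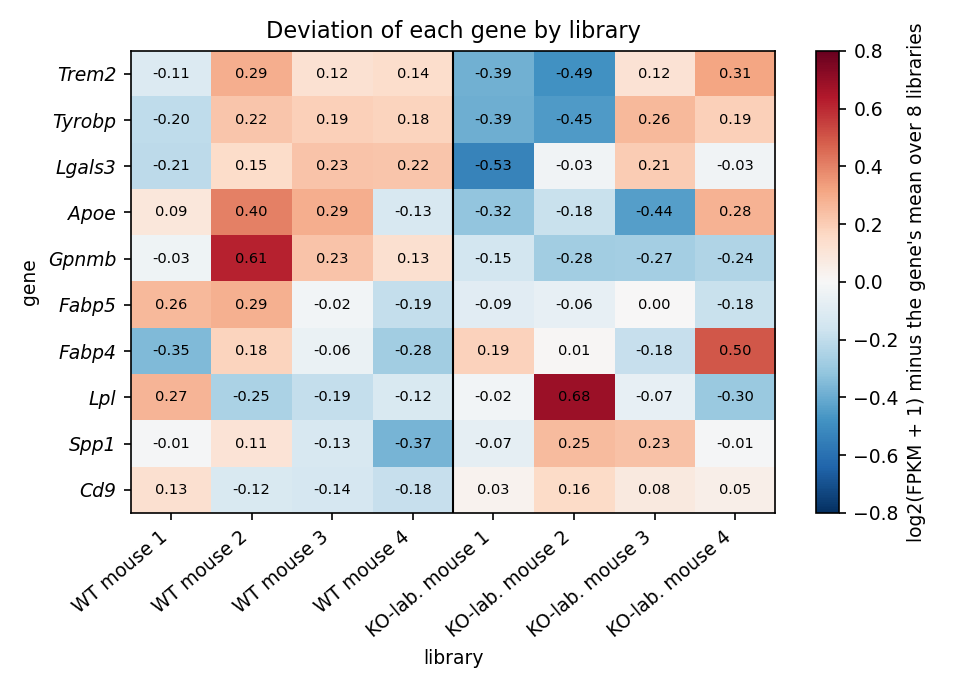
Deviation of log2(FPKM + 1) from each gene's mean over the 8 libraries, by gene (rows) and library (columns), Atg5 WT left of the line and labelled Atg5 KO right of it. Trem2 and Tyrobp share their low libraries, and Lpl has its highest value in KO-labelled mouse 2 and Fabp4 in KO-labelled mouse 4.

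Among the genes of lipid transport, Apoe had values below all Atg5 WT libraries in 3 of the 4 KO-labelled libraries, and it did not pass. Apoe (chromosome 7, 19696109 to 19699166, minus strand) encodes the apolipoprotein with which macrophages export cholesterol and which TREM2 can bind. It had 3382, 4202, 3890 and 2909 FPKM across Atg5 WT mice 1 to 4 and 2549, 2814, 2342 and 3852 FPKM across KO-labelled mice 1 to 4. KO-labelled mouse 4 lay among the high Atg5 WT values and Atg5 WT mouse 4 near the low ones, so the groups overlapped. The means were 3596 ± 569 (SD, n = 4) and 2889 ± 670 (SD, n = 4) FPKM, a ratio of 0.804. The log2 difference was -0.33, with an interval of -0.72 to 0.06 (limma adjusted p = 0.999, exact permutation p = 0.143). The 3 nearest profiles were those of Zfp691 (distance 0.290), Itgb5 (0.291) and Tgfbr2 (0.455). Itgb5 encodes an integrin chain that is also an osteopontin receptor.

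Lpl (chromosome 8, 68880491 to 68907448, plus strand), the lipase that releases fatty acids from lipoproteins, had 20.8, 14.2, 14.8 and 15.6 FPKM across Atg5 WT mice 1 to 4. The KO-labelled mice 1 to 4 had 16.8, 28.0, 16.3 and 13.7 FPKM. A single library, KO-labelled mouse 2, held the high value, and the other 3 lay inside or just below the Atg5 WT range. The log2 difference was 0.15, with an interval of -0.32 to 0.62, and without KO-labelled mouse 2 it was -0.05. In the same library Cd36, a fatty acid transporter, also had its highest value, 26.8 FPKM against 7.93 to 16.5 FPKM in the other 7.

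The fatty acid binding proteins differed in level more than in group. Fabp5 (chromosome 3, 10012548 to 10016607, plus strand), the epidermal type, had 45.0, 45.8, 36.8 and 32.6 FPKM across Atg5 WT mice 1 to 4 and 35.1, 35.7, 37.5 and 33.0 FPKM across KO-labelled mice 1 to 4. The KO-labelled values lay within the Atg5 WT range, with a log2 difference of -0.16 and an interval of -0.45 to 0.12. Fabp4 (chromosome 3, 10204347 to 10208576, minus strand), the adipocyte type that macrophages also express, had 1.97, 3.30, 2.65 and 2.12 FPKM across Atg5 WT mice 1 to 4 and 3.32, 2.82, 2.34 and 4.36 FPKM across KO-labelled mice 1 to 4. Its highest library, KO-labelled mouse 4, had 49 fragments and a counting interval of 3.22 to 5.76 FPKM, and the groups overlapped (log2 difference 0.26, interval -0.14 to 0.65). Adipocyte markers were near 0, the summed level of 9 being 0.271 to 2.00 FPKM, and Adipoq was listed above 0 in 1 library alone, Atg5 WT mouse 4, at 0.0523 FPKM. The 10 endothelial markers summed to 12.4 to 21.0 FPKM, most of it Pecam1 (9.50 to 16.8 FPKM), which macrophages also express. Cdh5 was at 0.412 to 0.760 FPKM and Vwf at 0.890 to 2.10 FPKM, and their part in the Fabp4 values was not tested. Keratinocytes also express Fabp5: Krt5 was at 0 to 0.191 FPKM, whereas Krt14 was 20.3 and 35.7 FPKM in mouse 1 of the groups and 2.55 to 6.91 FPKM elsewhere, and its part in the Fabp5 values was not tested.

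Spp1, Lgals3 and Cd9, products of activated macrophages, had small differences in opposite directions. Spp1 (chromosome 5, 104435118 to 104441050, plus strand) encodes osteopontin, a secreted ligand of CD44 and integrins. It had 1252, 1360, 1156 and 974 FPKM across Atg5 WT mice 1 to 4 and 1199, 1502, 1482 and 1255 FPKM across KO-labelled mice 1 to 4. The KO-labelled value was the higher in 3 of 4 same-numbered pairs, with group means of 1185 ± 164 (SD, n = 4) and 1359 ± 155 (SD, n = 4) FPKM. The log2 difference was 0.20, with an interval of -0.10 to 0.50 (limma adjusted p = 0.999, exact permutation p = 0.171). Spp1 overlaps 1 other annotated transcript of unsettled status, which could share fragments with it. The nearest profile was that of Fth1, the ferritin heavy chain (distance 0.358), followed by Grpel1 (0.464) and Lcp1 (0.496).

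Lgals3 (chromosome 14, 47367751 to 47386160, plus strand), galectin-3, binds sugar chains on glycoproteins and damaged lysosomes. It had 985, 1262, 1336 and 1330 FPKM across Atg5 WT mice 1 to 4 and 789, 1120, 1315 and 1118 FPKM across KO-labelled mice 1 to 4. Both mouse 1 libraries were the lowest of the 8, as for 14.7% of all genes tested. The KO-labelled value was the lower in all 4 same-numbered pairs, which 6.52% of all genes tested also showed. The differences within pairs ran from -0.32 to -0.02 on the log2 scale. The mouse 1 libraries were also those with the high fibroblast marker sums given above, mostly Col3a1, whose part was not tested. The log2 difference was -0.19, with an interval of -0.57 to 0.19, and -0.39 to 0.01 with the mouse number as a block (limma adjusted p = 0.572 with the block). Without KO-labelled mouse 1 it was -0.05.

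Cd9 (chromosome 6, 125460266 to 125494791, minus strand), a tetraspanin that organises membrane proteins, had 186, 157, 155 and 150 FPKM across Atg5 WT mice 1 to 4. The KO-labelled mice 1 to 4 had 174, 190, 180 and 176 FPKM. Atg5 WT mouse 1 lay among the KO-labelled values, and the other 3 Atg5 WT libraries lay below all 4 of them. Over mice 2 to 4 the groups did not overlap, at 154 ± 3.53 (SD, n = 3) and 182 ± 7.11 (SD, n = 3) FPKM, with 10.3% of all genes tested also separate and higher over these mice. Over all mice the log2 difference was 0.16, with an interval of -0.07 to 0.38 (limma adjusted p = 0.999, exact permutation p = 0.114). Without both mouse 1 libraries it was 0.24, with a limma adjusted p of 0.776. Cd9 overlaps 2 annotated transcripts on the other strand, so a share of its fragments could belong to them, since the sources used here do not give the strand setting.

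Trem1 and Clec5a, whose receptors also signal through TYROBP, had positive differences. Of 13 measured genes of the TREM family and of TYROBP-coupled receptors, none passed, and 8 had positive and 5 negative differences. The median difference was 0.09 (0.02 without both mouse 1 libraries). At an unadjusted p under 0.05 in limma, 2 had higher and none lower values, beside 1.2% and 0.826% of all genes tested. With a block for the mouse number the counts were 3 higher, Trem3 being added, and 1 lower, Cd300lb, beside 5.19% and 3.62% of all genes tested. Trem1, which amplifies inflammatory responses of neutrophils and monocytes, had 133, 136, 115 and 133 FPKM across Atg5 WT mice 1 to 4. It had 154, 150, 150 and 154 FPKM across KO-labelled mice 1 to 4, all above the Atg5 WT values, as 1.15% of all genes tested were. Its log2 difference was 0.23 (limma adjusted p = 0.999). Clec5a, a lectin receptor that pairs with the same adaptor, had means of 47.1 ± 4.41 (SD, n = 4) and 56.8 ± 4.96 (SD, n = 4) FPKM. Trem3, a relative found in mice, had 7.49 ± 1.87 and 9.34 ± 0.92 FPKM (SD, n = 4 each), and Cd300lb, another TYROBP-coupled receptor, had 19.7 ± 1.91 and 17.1 ± 0.78. Of 13 neutrophil markers, 6 had a mean of at least 1 FPKM. Ly6g was at 0 in 7 of 8 libraries, and Mmp8 reached 11.02 FPKM in KO-labelled mouse 2. The summed level of the list was 43.8 to 101 FPKM in Atg5 WT and 74.6 to 156 FPKM in the KO-labelled libraries. Mmp9 (6.71 to 81.9 FPKM) and Retnlg (17.8 to 44.6 FPKM) made up most of that sum in each library, so it mainly follows these genes. Of the 6 markers, 5 had positive differences and 1, Csf3r, a negative one of -0.00294 on the log2 scale. Among the 5, S100a9 (0.437 ± 0.258 and 2.06 ± 2.3 FPKM, SD, n = 4 each) reached a mean of 1 FPKM only through the KO-labelled libraries. The part of these markers in the Trem1 values was not tested.

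**Figure D4:**
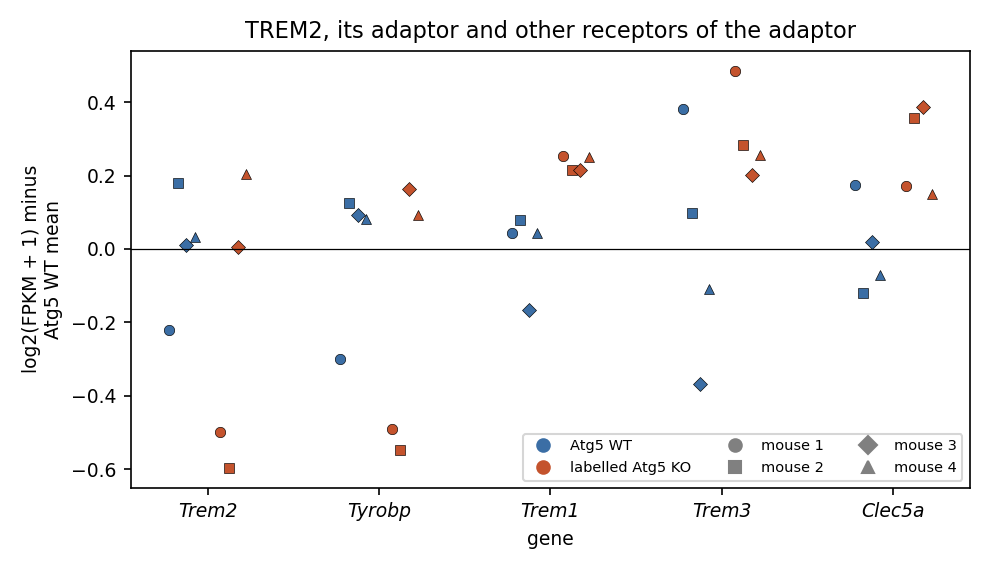
Difference of each library from the Atg5 WT mean in log2(FPKM + 1) for Trem2, the adaptor gene Tyrobp and 3 other receptor genes that use the adaptor, with colours for the groups and symbols for the mouse numbers. The 4 KO-labelled values of Trem1 lie together above all Atg5 WT values, while those of Trem2 and Tyrobp spread from -0.60 to 0.20. The 3 other receptors shown have positive differences. Of the 13 measured genes of their list, 5 had negative differences, among them Cd300lb, and are not shown.

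The list of TREM2 and TYROBP signalling also holds the proteases that shed TREM2 and a related adaptor. Of its 27 genes, none passed, 14 had positive and 13 negative differences, and the median difference was 0.01 (-0.02 without both mouse 1 libraries). With an unadjusted p under 0.05, 0 were higher and 1 had a lower value, beside 1.2% and 0.826% of all genes tested. The lower gene was Blnk, an adaptor of SYK signalling, with 7.90 ± 1.38 (SD, n = 4) FPKM in Atg5 WT and 5.61 ± 0.99 (SD, n = 4) FPKM in the KO-labelled libraries. Its groups did not overlap, as for 0.59% of all genes tested in this direction. Syk itself stood at 87.7 ± 13.1 and 88.7 ± 9.85 FPKM, and its target Plcg2 at 63.3 ± 7.88 and 64.1 ± 4.96 FPKM (SD, n = 4 each). The proteases that shed TREM2 from the surface were Adam10, with 57.2 ± 6.25 and 64.3 ± 7.61 FPKM, and Adam17, with 50.02 ± 10.1 and 54.1 ± 9.07 FPKM (SD, n = 4 each). Hcst, which encodes the related adaptor DAP10, had 12.4 ± 1.04 and 10.8 ± 3.23 FPKM.

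Of 46 measured further markers of lipid-associated macrophages, none passed, and 26 differences were negative, with a median of -0.03. At an unadjusted p under 0.05, 2 had lower and none higher values, beside 0.826% and 1.2% of all genes tested. With a block for the mouse number, 8 had lower and 3 higher values at that level, beside 3.62% and 5.19% of all genes tested, and none passed after adjustment. Cst7, a cystatin that inhibits lysosomal cathepsins, had 4.49 ± 0.40 (SD, n = 4) FPKM in Atg5 WT and 2.83 ± 1.11 (SD, n = 4) FPKM in the KO-labelled libraries. Igf1, a growth factor, had 1.37 ± 0.28 and 0.866 ± 0.229 FPKM. Igf1 is among the 2 lower genes, but it reached the level for testing only through its Atg5 WT values. Gm2a, the lysosomal GM2 activator, had 195 ± 4.47 and 167 ± 17.8 FPKM (SD, n = 4 each). Its groups did not overlap, as for 0.59% of all genes tested in this direction. Cd63, a tetraspanin of lysosomes, had 309 ± 39.3 and 256 ± 28.8 FPKM. Plin2, which coats lipid droplets, had 186 ± 21.3 and 192 ± 12.8 FPKM, and the cholesterol exporter Abca1 had 68.8 ± 7.28 and 76.9 ± 24.7 FPKM.

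In the list of 21 measured genes for lipid sensing and handling, none passed and the median was -0.03. At an unadjusted p under 0.05, 1 was lower, beside 0.826% of all genes tested. With the block it was 2 lower and 1 higher, the latter Msr1, beside 3.62% and 5.19% of all genes tested. The gene lower in the fit without the block was Pltp, a phospholipid transfer protein, with 63.2 ± 14.6 and 47.9 ± 3.21 FPKM (SD, n = 4 each). Msr1, a scavenger receptor for modified lipoproteins on the same list, had a positive difference of 0.29. Pparg, a nuclear receptor for fatty acids, had 1.68 ± 0.19 and 1.38 ± 0.30 FPKM. Among 9 genes of MiT/TFE factors and macrophage regulators, none passed and 1 had an unadjusted p under 0.05, beside 2.02% of all genes tested. This gene was Tfec, a MiT/TFE factor of macrophages, with 15.6 ± 0.48 and 19.6 ± 1.86 FPKM (SD, n = 4 each). It had a log2 difference of 0.30 (limma adjusted p = 0.999). Its groups did not overlap, as for 1.15% of all genes tested in this direction. With a block for the mouse number, 3 further genes of this list had lower values below the unadjusted threshold, beside 3.62% of all genes tested. None of the 3 passed after adjustment. They were the myeloid transcription factor genes Cebpa (202 ± 89.2 and 147 ± 81.4 FPKM), Cebpb (843 ± 370.1 and 628 ± 288 FPKM) and Spi1 (272 ± 80.7 and 226 ± 74.4 FPKM, SD, n = 4 each). Mitf, a regulator of Gpnmb, had 9.45 ± 0.53 and 9.88 ± 0.90 FPKM. Among 5 measured genes of the APOE cluster and APOE receptors, 0 had an unadjusted p under 0.05. Lrp8 had separate groups (3.59 ± 0.16 and 4.12 ± 0.19 FPKM), as for 1.15% of all genes tested in this direction. Of 8 other FABP genes only Fabp7, the brain type, reached the level for testing, at 0.638 ± 0.151 and 1.69 ± 0.88 FPKM (SD, n = 4 each). It did so only through the KO-labelled libraries, and it rests on 8 to 62 fragments per library. The difference of Fabp7 had an unadjusted p under 0.05 in limma, beside 1.2% of all genes tested that were higher. This p is not independent of the filter on mean level. None of the 8 osteopontin receptors, 5 galectins, 11 tetraspanins and partners or 8 lipoprotein lipase partners measured had an unadjusted p under 0.05, with median differences of 0.07, -0.05, -0.02 and 0.04. Without both mouse 1 libraries the last of these medians was -0.01. With a block for the mouse number, 1 gene in each of 3 of these lists had an unadjusted p under 0.05, beside 8.81% of all genes tested. They were Itga9, an integrin chain (10.6 ± 1.24 and 8.84 ± 1.15 FPKM), Cd63, given above, and Hspg2, the proteoglycan perlecan (3.68 ± 2.30 and 7.25 ± 6.58 FPKM, SD, n = 4 each). Hspg2 was highest in the mouse 1 library of each group, at 7.04 and 16.6 FPKM.

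The nearest profiles of the remaining members were named by the same measure among 7309 genes. For Gpnmb they were Cxcr4, a chemokine receptor (distance 0.388), Bag3, a chaperone partner in selective autophagy (0.398), and Tuba4a, a tubulin (0.411). Cxcr4 had 131.5 ± 16.0 FPKM in Atg5 WT and 106.1 ± 3.83 FPKM in the KO-labelled libraries (SD, n = 4 each). For Fabp5 they were Manf (0.396), a secreted protein of the stressed endoplasmic reticulum, Npc2 (0.442), a lysosomal cholesterol carrier, and Snx1 (0.446). For Lpl they were Tspan3 (0.216), Abracl (0.217) and Atp6v1d (0.251), a subunit of the lysosomal proton pump. For Lgals3 they were Edf1 (0.193), Gpr108 (0.197) and Irf8 (0.205), and for Cd9 Pcca (0.248), Rab32 (0.351) and Deptor (0.389). For Fabp4 the nearest, Siglec1, was at a distance of 0.401, followed by Polr1a (0.490) and Pcnt (0.493).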

How the data were processed

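The authors deposited 1 table of FPKM values for 8 libraries, 1 per mouse, with gene lengths and coordinates. CASAVA, STAR and mm10 are named, with no version or role, per the submitters' processing notes. The counter, whether it used strand, and the gene annotation are not stated by the sources used here. FPKM times gene length gave whole fragments for 100% of values above 0 (within 0.01 fragments). FPKM is scaled to fragments in genes, so a rise of some genes lowers others.

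Values were transformed to log2(FPKM + 1), and groups were compared by the two-sided moderated test of limma 3.58.1 (R 4.3.3), allowing a mean-variance trend. It covered 11019 genes whose mean FPKM was 1 or more, and p-values were adjusted by Benjamini-Hochberg over all of them at 0.05. The log2 scale with a pseudocount of 1 understates changes of low genes. Single members were also tested by exact permutation over 70 assignments. The test was checked on simulated fragments drawn independently for each library. These gave every gene the same added spread and did not hold the shared deviations of same-numbered libraries described below. The check therefore does not cover those deviations, genes of wider spread or changes smaller than the simulated ones. The members and lists were chosen with earlier results of these data known. Named are the 10 members, Atg5, up to 4 genes of each pathway list with the smallest p, and for each member the 3 nearest profiles among genes of mean FPKM 5 or more, without pseudogenes and unnamed gene models. Syk, Plcg2, Adam17, Plin2, Abca1, Cd36, Mitf and the single cell type markers, among them Thbs1, were named after their values were seen. Where the labels give mouse numbers, same-numbered libraries deviated together from their group means (correlations over genes of 0.841, 0.208, 0.458 and 0.471 for mice 1 to 4; 0.297, -0.134 and 0.205 for mice 2 to 4 alone), so a fit with the number as a block is given beside the main one. The labels name separate mice and no shared litter or day.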

Additional observations from a re-analysis of the deposited data

Results flagged for a closer look

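Tyrobp in Atg5 WT mouse 1 stood far from the other 3 Atg5 WT libraries, at 658 FPKM against 857 to 883 FPKM. This was the single group with such a gap among 20 tested (10 genes in 2 groups), and chance gives about 1 in 20.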

How the results depend on the processing

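Under 16 alternatives each, the 9 members other than Lpl kept the direction of their difference, and no member passed after adjustment (lowest adjusted p 0.243, for Gpnmb with voom and the block). Gpnmb lay between -0.59 and -0.34, with an unadjusted p under 0.05 in limma in all 16. Trem2 lay between -0.36 and -0.10, Apoe between -0.48 and -0.24, Cd9 between 0.12 and 0.24, Fabp4 between 0.13 and 0.36, and Fabp5 between -0.26 and -0.10. Without single replicates, Tyrobp ranged from -0.32 to -0.08, Lgals3 from -0.29 to -0.05 and Spp1 from 0.11 to 0.27. Lpl lay between -0.0549 and 0.30 (-0.0549 to 0.2713 without single replicates), its negative value coming without KO-labelled replicate 2. The count of genes called was 1 with median-of-ratios scaling, with the replicate block and without both mouse 1 libraries, 8 with voom and the replicate block, and 0 to 1 without single replicates. Atg5 was the gene called wherever the count was 1. Genes at an unadjusted p under 0.05 numbered 540 with no filter on low values, 971 with the replicate block, 618 without both mouse 1 libraries, 1121 with voom and the replicate block, and 109 to 833 without single replicates. The block changed no other call after adjustment, the 8 by voom aside, but moved the list counts at an unadjusted p under 0.05 given above. Of 176 list medians, 172 moved by less than 1 SD between replicates. The exceptions were the FABP family, which is Fabp7 alone (1.15 with a pseudocount of 0.1, 1.30 with voom and 1.36 with voom and the replicate block, against 0.66), and osteopontin receptors (0.0277 to 0.17 without single replicates). Levels per principal transcript length were chosen after seeing the data. Apoe and Cd9 each had an unadjusted p under 0.05 in 2 alternatives. Of the members, Fabp4 rests on the fewest fragments.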
